A study of Mus musculus with 6 samples.

Results

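The genes described here carry out or drive DNA replication: they license replication origins, activate and run the replication fork, supply deoxynucleotides, or belong to the E2F and cyclin E switch into S phase. They are a list of 35 mouse genes taken by name and known role, drawn up with earlier results of these data known; no measured value decides membership. A gene was represented by a probe set annotated to that gene alone, and where there were several, by the one with the highest mean over the 6 arrays. Of the 35 genes, 34 had such a probe set, out of 22180 genes measured in the same way; Rfc4 had none of its own.

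RNA came from sorted lineage-negative, Sca1-positive, cKit-positive (LSK) bone marrow cells, which include blood stem cells and early progenitors of several lineages. They came from mice transplanted with Tifab+/+ (wild type) or Tifab-/- (knockout) marrow, with 3 mice in each group per the labels and 3 Affymetrix MoGene 2.0 ST arrays in each group. The hosts named for both groups were syngeneic Boy/J mice irradiated with 7 Gy and then 4.75 Gy 3 hours later, and the 3 months in the labels can be read as an age or as a time since transplantation. The labels name no marker that would separate donor from host cells in the sort. The study asked how gene expression in LSK cells differed between the genotypes after engraftment and before marrow failure was overt.

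Cells of a stem and progenitor population that divide must first load the MCM helicase onto origins in G1, a step that needs ORC, CDC6 and CDT1. Entry into S phase then depends on cyclin E with CDK2 and on E2F factors, which switch on most of the genes named here as one programme. Long-term stem cells are mostly quiescent and multipotent progenitors divide more often, so in LSK cells the level of this programme is a usual readout of how many cells are cycling.

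Probe set values are on a log2 scale, and differences are given as knockout minus wild type in log2 units. For Tifab itself, the wild-type arrays were at 4.99, 5.37 and 5.53 and the knockout arrays at 5.21, 5.12 and 5.26. These values overlapped, and where the probes lie relative to the deleted part is not known here, so the groups are named as labelled and the labels are not checked by them. All pairs of arrays correlated at 0.975 to 0.986 across genes. Of the markers of the sorted cells, Kit, the receptor used in the sort, lay between 9.41 and 9.69 and Cd34 between 10.32 and 10.66, while Ly6a, which encodes Sca1, had no probe set of its own. Of the 8 measured, Meis1, a stem cell transcription factor gene, was the 1 with an unadjusted p under 0.05, at 0.39 with every knockout array higher, and Flt3, a receptor of multipotent progenitors, had -0.24 with overlapping groups. Of the markers of mature T and NK cells, 5 of 8 lay below the median signal of all genes, as did 3 of 8 B cell markers. The brightest marker had a mean signal of 9.75 in the T and NK list and 7.43 in the B cell list. The array means of the 9 neutrophil markers overlapped, at 7.88 to 8.24 in the wild-type and 7.79 to 8.20 in the knockout arrays, but Mmp8 among them had -0.85, with every knockout array lower and an unadjusted p under 0.05. The array means of the 5 measured erythroid markers also overlapped, at 5.36 to 6.08 and 5.75 to 5.93. The 7 genes of granulocyte and macrophage progenitors had array means of 8.33 to 8.36 in the wild-type and 8.46 to 8.74 in the knockout arrays, without overlap. All 7 had a positive difference, 1 of them, Ctsg, with an unadjusted p under 0.05 in limma. At that threshold 4.74% of all genes were higher and 5.51% lower. The groups did not overlap for 7.75% of all genes on the higher and 8.37% on the lower side. The part of these marker differences in the values that follow was not tested.

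Promoter letters are shown first because E2F factors and the CCAAT-binding factor NF-Y are the textbook regulators of this group. Of the 35 genes, 30 had at least 1 entry in the RefSeq promoter table for GRCm38.p6, with 36 promoters in all. The 250 bases before each start were searched on both strands for the E2F-like letters TTTGGCGC, TTTCCCGC, TTTGCCGC and TTTCGCGC and for CCAAT. The E2F-like letters occurred in 9 of the 36 promoters, or 25%, and in 1.86% of all 32851 promoters and 2.35% of those of protein-coding genes. CCAAT occurred in 22 of the 36, or 61.1%, beside 33.8% of all promoters and 35.4% of those of protein-coding genes. The promoters of these genes had a median GC content of 57.4%, beside 55.6% over protein-coding genes and 52.4% over all promoters. The genes with the E2F-like letters were Orc1, Cdc6, Mcm5, Mcm6, Mcm7, Pola1, Rfc3, Cdk2 and Uhrf1.

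The following stretches, 5′ to 3′ on the gene's strand, stand for the variety of these promoters, with the searched letters in capitals. Mcm5 (chr8:75109259-75109467, plus strand) and Mcm6 (chr1:128359706-128359955, minus strand) encode 2 subunits of the same helicase. In both, 2 E2F-like matches on opposite strands overlap to give 1 run of capitals, which begins 153 bases before the start in Mcm5 and 110 in Mcm6, and Mcm6 has a further match at 47. Rrm2 (chr12:24708004-24708253, plus strand), the gene with the largest difference in the list, has a CCAAT and none of the E2F-like letters in its window. The Mcm5 stretch stops 42 bases before the listed start. The bases nearer to the start lie inside the span of Mcm5 itself in the RefSeq gene table. Another CCAAT match of Mcm5, 22 bases before the start, was found in the search and lies in the part not printed.
Mcm5: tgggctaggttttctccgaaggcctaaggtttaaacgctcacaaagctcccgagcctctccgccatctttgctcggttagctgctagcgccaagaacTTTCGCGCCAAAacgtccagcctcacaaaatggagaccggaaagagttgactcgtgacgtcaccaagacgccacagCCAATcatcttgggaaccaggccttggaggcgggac
Mcm6: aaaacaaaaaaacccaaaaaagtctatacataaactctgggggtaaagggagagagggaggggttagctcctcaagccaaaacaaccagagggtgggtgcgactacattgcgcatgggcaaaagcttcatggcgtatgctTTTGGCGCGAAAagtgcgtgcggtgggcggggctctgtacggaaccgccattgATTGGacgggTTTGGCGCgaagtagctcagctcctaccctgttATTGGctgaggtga
Rrm2: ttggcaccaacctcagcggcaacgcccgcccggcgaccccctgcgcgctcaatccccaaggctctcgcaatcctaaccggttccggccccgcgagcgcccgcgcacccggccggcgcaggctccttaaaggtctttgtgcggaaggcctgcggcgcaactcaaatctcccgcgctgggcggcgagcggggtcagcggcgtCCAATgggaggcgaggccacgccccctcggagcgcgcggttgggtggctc

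The replication genes were split evenly between higher and lower values in the knockout arrays, and no gene passed the adjusted threshold. Of the 34 genes, 17 had a positive and 17 a negative difference, with a median of -0.014, beside 5.92e-05 over all genes and 0.025 over the 9819 genes whose signal lay in the same range. The split was 12 to 22 after quantile normalization, 13 to 21 after cyclic loess and 16 to 18 after median centring. None passed an adjusted p of 0.05 in limma, which 0% of all 22180 genes passed, and the lowest adjusted p in the list was 0.427, at Tk1. At an unadjusted p under 0.05 in limma there were 3. Rrm2 and Dut were on the higher side, 2 of 34 beside 4.74% of all genes, and Tk1 was on the lower side, 1 of 34 beside 5.51%. Among the 9819 genes in the same signal range, 5.32% were higher and 3.65% lower. The 2 groups of arrays did not overlap for 4 genes: Dut and Mcm3 were higher in every knockout array, beside 7.75% of all genes, and Tk1 and Mcm5 were lower, beside 8.37%. These shares lay near those of all genes. Among all genes with an unadjusted p under 0.05 the split was 1052 higher to 1222 lower as deposited and 1190 to 848 after quantile normalization. The arrays measure RNA of the sorted population, so the number of cells of a type and the RNA per cell cannot be told apart in any value given here.

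**Figure D1:**
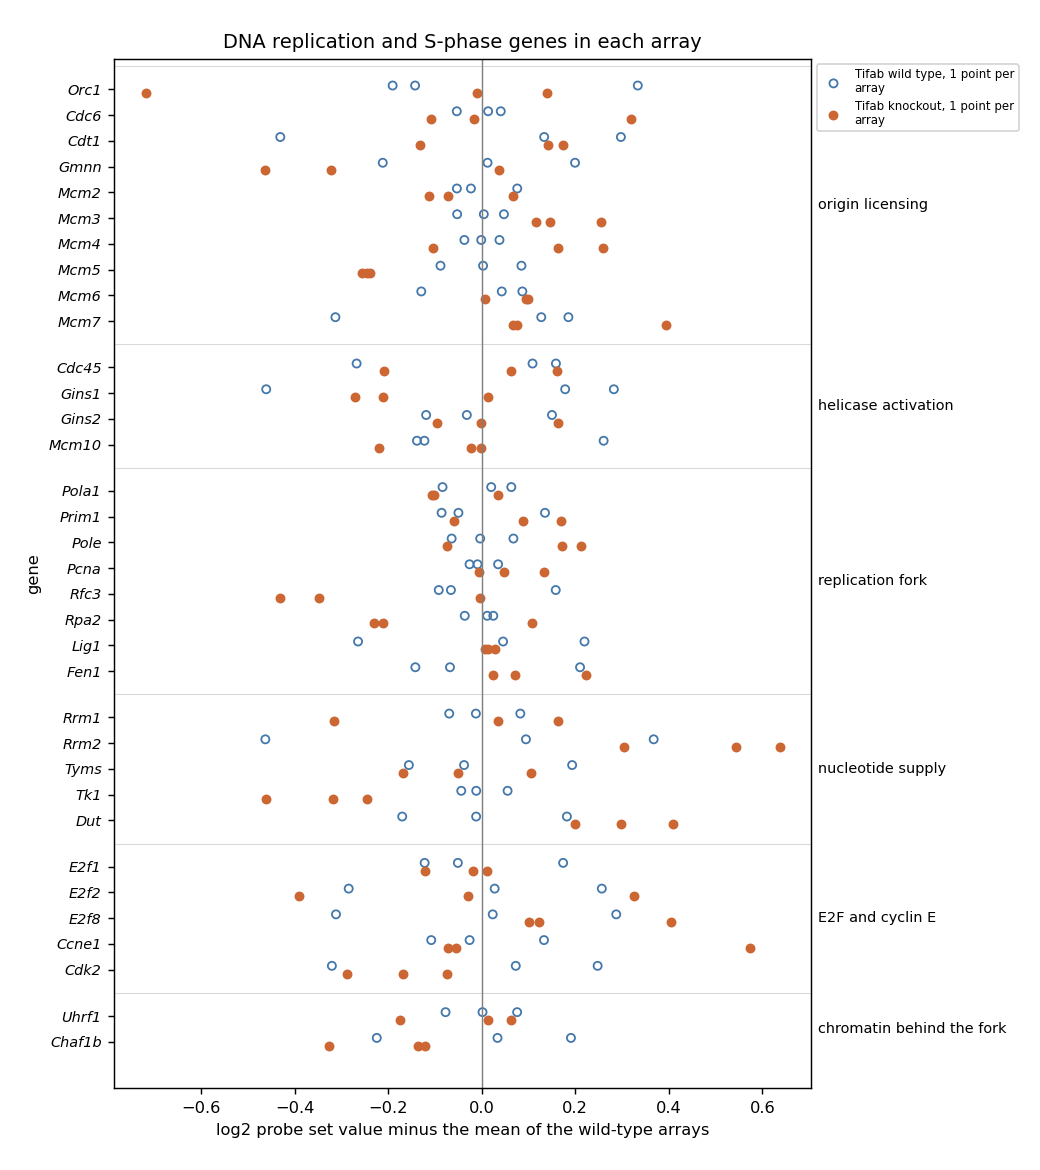
Each row is a gene, grouped by role, and each point is 1 array (open, wild type; filled, knockout), plotted as its log2 probe set value minus the mean of the 3 wild-type arrays. In 30 of the 34 rows the filled and open points overlap; the exceptions are Mcm3 and Dut, with the filled points to the right, and Mcm5 and Tk1, with the filled points to the left.

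The precision differed from gene to gene. Replicate arrays of a group differed by a median SD of 0.161 for these genes, beside 0.210 for all genes in the same signal range. The 95% interval of the difference in limma lay within 1.5-fold either way for 25 of the 34 genes and within 2-fold for all 34. The lowest bound was -0.76, at Orc1, and the highest 0.95, at Rrm2.

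**Figure D2:**
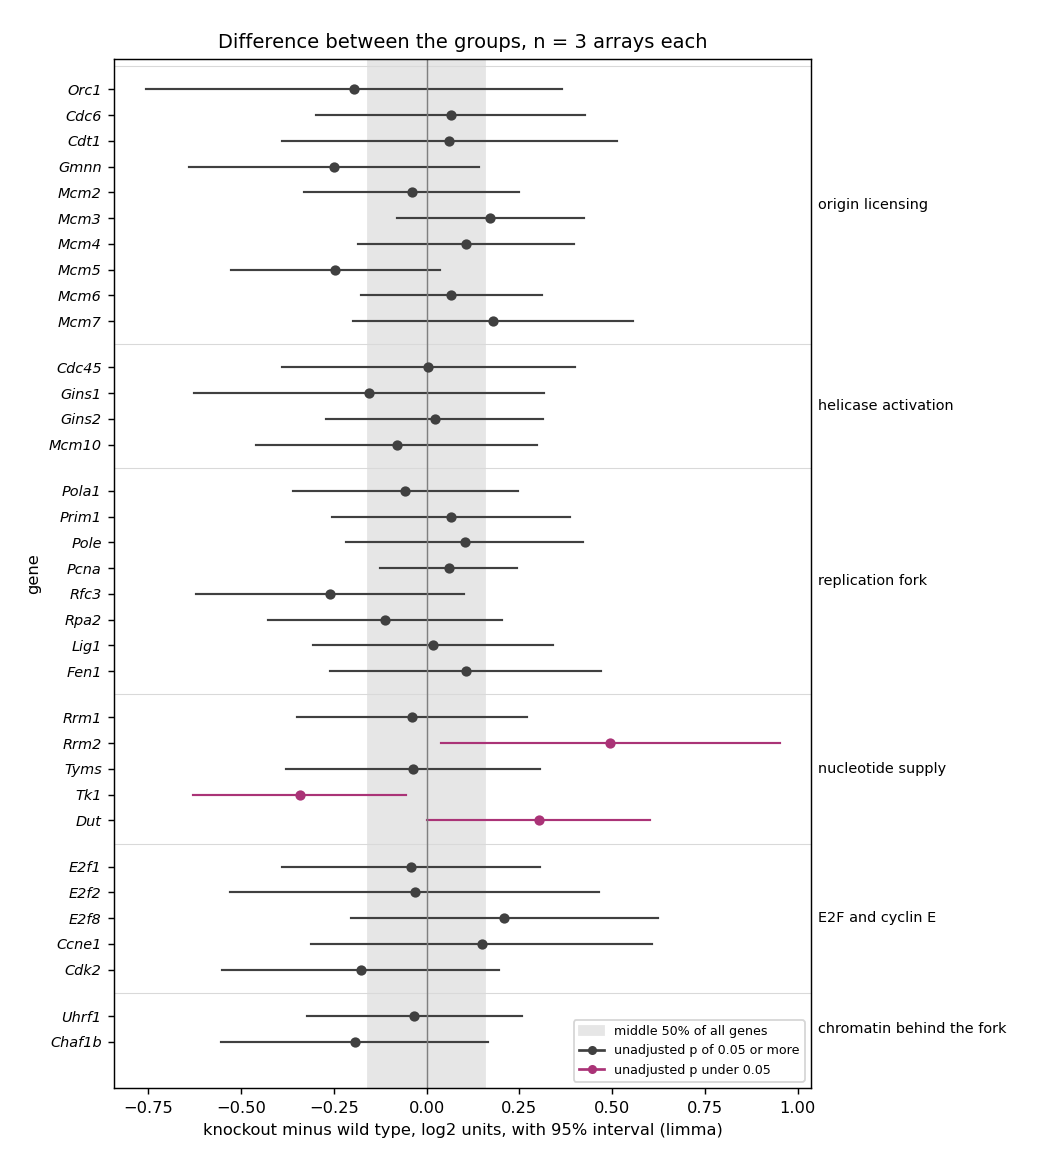
Points are the knockout minus wild type differences in log2 units with their 95% intervals in limma (n = 3 arrays in each group), grouped by role, and the grey band spans the middle 50% of all genes, from -0.16 to 0.16. The intervals of Rrm2, Dut and Tk1 leave out 0, that of Dut by 0.0021, and all others include it.

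Among the origin licensing genes, 6 of 10 had a positive and 4 a negative difference, with a median of 0.063, and 0 passed an unadjusted p of 0.05. MCM2 to MCM7 form the ring-shaped helicase that unwinds DNA at the fork, and their genes are usually induced together in late G1. Here Mcm3, Mcm4, Mcm6 and Mcm7 had 0.17, 0.11, 0.067 and 0.18, and Mcm2 and Mcm5 had -0.040 and -0.25, with Mcm6 at -0.0060 after quantile normalization and the other 5 signs the same under each scaling. Mcm3 read 8.43, 8.39 and 8.33 in the wild-type arrays and 8.50, 8.64 and 8.53 in the knockout arrays. All 3 knockout values lay above all wild-type values, with a difference of 0.17 ± 0.11 (SE, adjusted p = 0.621 in limma). Mcm5 read 7.80, 7.62 and 7.72 in the wild-type arrays and 7.47, 7.47 and 7.46 in the knockout arrays. The knockout values of Mcm5 were nearly equal to each other and all lay below the wild-type values, a difference of -0.25 ± 0.13 (SE, adjusted p = 0.529 in limma). For both genes the adjusted p missed the threshold.

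The genes for loading the MCM ring and for its control were no more uniform. Orc1, the cell-cycle-regulated subunit of the origin recognition complex, had -0.20 ± 0.25 (SE), with knockout replicate 3 at 4.51 and the other knockout arrays at 5.22 and 5.37. Without that array its difference was 0.065. Cdc6 and Cdt1, the 2 loading factors, had 0.064 ± 0.16 and 0.062 ± 0.20 (SE). Gmnn encodes geminin, which binds CDT1 after S phase begins and stops origins from being licensed again. It measured 7.67 ± 0.21 in the wild-type and 7.42 ± 0.26 in the knockout arrays (SD, n = 3 each), a difference of -0.25 ± 0.17 (SE), and its groups overlapped.

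CDC45 and the GINS proteins join the MCM ring to make the active helicase, and MCM10 helps the complex to start. Cdc45 measured 6.65 in both groups, with a difference of 0.0048 ± 0.18 (SE), and Gins2 had 0.022 ± 0.13 (SE); both turned negative after quantile normalization and after cyclic loess. Gins1 had -0.16 ± 0.21 (SE), where wild-type replicate 1 was at 6.24 and the other wild-type arrays at 6.98 and 6.88. Without that array the difference of Gins1 was -0.39, with an unadjusted p under 0.05. Mcm10 had -0.081 ± 0.17 (SE).

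At the fork itself, primase and DNA polymerase alpha start each strand, polymerase epsilon extends the leading strand, and PCNA is the sliding clamp loaded by the RFC complex. None of the 8 measured genes passed an unadjusted p of 0.05, and their median was 0.038. Pcna read 10.33, 10.28 and 10.27 in the wild-type arrays and 10.34, 10.43 and 10.29 in the knockout arrays. Its groups overlapped, and the difference was 0.059 ± 0.082 (SE) with a 95% interval of -0.12 to 0.24; it was -0.030 after quantile normalization and -0.026 after cyclic loess. Pola1, Prim1 and Pole, the catalytic subunits of polymerase alpha, primase and polymerase epsilon, had -0.058, 0.066 and 0.10. Rfc3, a clamp loader subunit, had the largest difference at the fork, -0.26 ± 0.16 (SE). It read 7.32, 7.55 and 7.30 in the wild-type and 6.96, 7.04 and 7.38 in the knockout arrays, so knockout replicate 3 lay among the wild-type values. Rpa2, a subunit of the protein that coats single-stranded DNA, had -0.11, and Lig1 and Fen1, which join and trim lagging-strand fragments, had 0.017 and 0.11, where the sign of Lig1 also turned with those 2 scalings.

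Of the 5 nucleotide supply genes, Rrm2 and Dut were on the higher and Tk1 on the lower side at an unadjusted p under 0.05. At that threshold in limma 4.74% of all genes were higher and 5.51% lower. Whether such calls gather in this role was not tested. Ribonucleotide reductase makes deoxynucleotides from ribonucleotides, and RRM2 is its S-phase subunit. Rrm2 read 7.72, 8.27 and 8.54 in the wild-type arrays and 8.72, 8.48 and 8.81 in the knockout arrays. Wild-type replicate 1 was the lowest array, and wild-type replicate 3 lay above knockout replicate 2, so the groups overlapped. The difference was 0.50 ± 0.20 (SE), or 1.41-fold with a 95% interval of 1.03 to 1.93 (adjusted p = 0.462 in limma).

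On a second Rrm2 probe set the wild-type arrays were at 7.45, 7.19 and 7.25 and the knockout arrays at 7.44, 6.88 and 7.22. Its difference was -0.11, opposite in sign, and the mean of both probe sets gave 0.19. Without wild-type replicate 1 the brighter probe set gave 0.26. The partner subunit gene Rrm1, whose product is present through the cell cycle, had -0.040 ± 0.14 (SE).

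Dut encodes dUTPase, which keeps uracil out of DNA and makes the precursor of thymidylate. It read 8.05, 8.21 and 8.41 in the wild-type arrays and 8.42, 8.52 and 8.63 in the knockout arrays. The lowest knockout value exceeded the highest wild-type value by a small margin, and the difference was 0.30 ± 0.13 (SE), or 1.23-fold, with a 95% interval of 0.0021 to 0.60 on the log2 scale (adjusted p = 0.487 in limma). Its unadjusted p was under 0.05 in 4 of 16 settings, the one reported among them. Without wild-type replicate 1 the difference was 0.22. Another, very dim Dut probe set, at 2.19 to 2.35, gave 0.045.

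Tk1 encodes thymidine kinase 1, the S-phase enzyme that salvages thymidine. It read 7.93, 7.83 and 7.86 in the wild-type arrays and 7.41, 7.55 and 7.63 in the knockout arrays. All knockout values lay below all wild-type values, and the difference was -0.34 ± 0.13 (SE), or 0.789 of the wild-type level with a 95% interval of 0.647 to 0.963 (adjusted p = 0.427 in limma). With 1 array left out it ranged from -0.39 to -0.28 and kept an unadjusted p under 0.05 in 4 of 6 such fits, the exceptions being those without wild-type replicate 1 or knockout replicate 1. Tyms, the thymidylate synthase gene of the route that does not depend on salvage, had -0.037 ± 0.15 (SE).

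**Figure D3:**
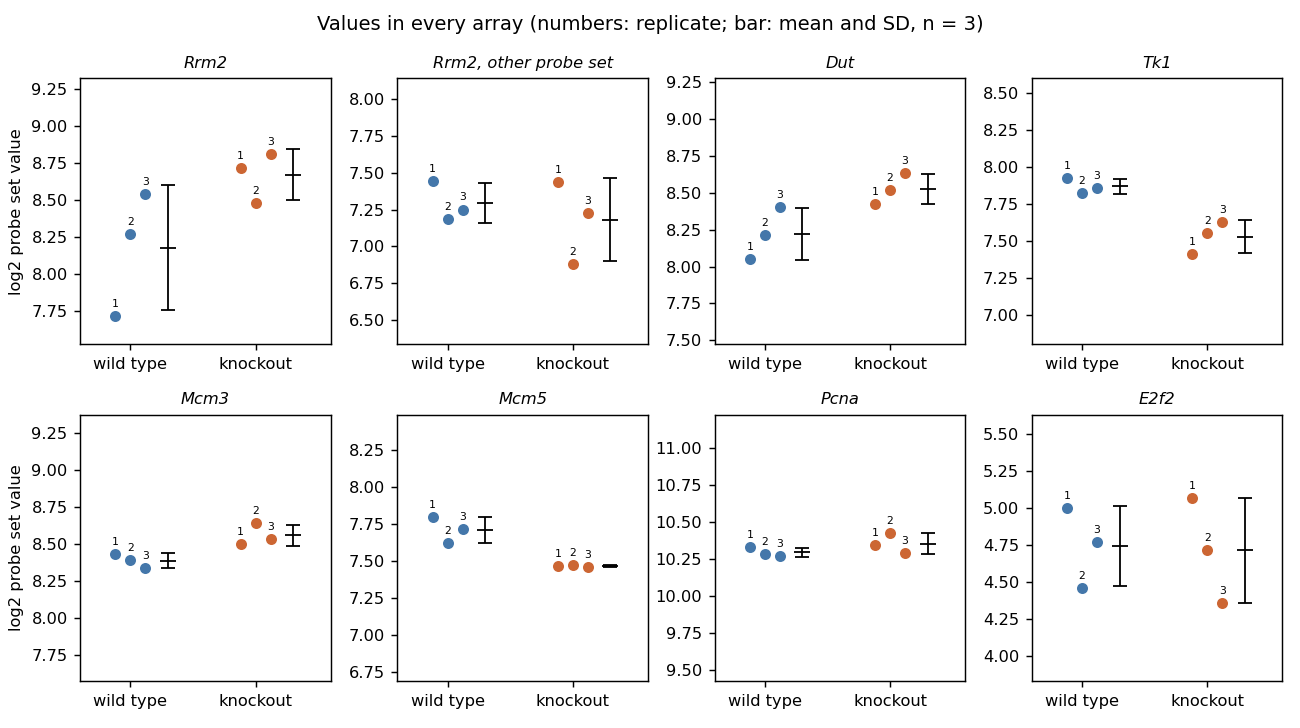
Each panel shows the log2 probe set value in all 6 arrays, with replicate numbers beside the points and the mean and SD of the 3 arrays of each group; all panels span the same number of log2 units. The main Rrm2 probe set is lowest in wild-type replicate 1 at 7.72 and the other one shows no such step, while Tk1 and Mcm5 are lower in every knockout array and Dut and Mcm3 are higher in every one; the Pcna and E2f2 groups overlap.

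The 5 genes of the switch into S phase had a median of -0.032, and 0 passed an unadjusted p of 0.05. E2f1 and E2f2 encode activating E2F factors. E2f1 had -0.043 ± 0.15 (SE). E2f2 had the lowest mean signal of the measured genes in the list. It read 5.00, 4.46 and 4.77 in the wild-type arrays and 5.07, 4.72 and 4.35 in the knockout arrays. Its groups overlapped fully, with a difference of -0.032 ± 0.22 (SE) that changed sign to 0.096 without wild-type replicate 1 and to 0.15 without knockout replicate 3. E2f8, a repressor that is itself an E2F target, had 0.21 ± 0.18 (SE). Ccne1, the cyclin E1 gene, had 0.15 ± 0.20 (SE), with knockout replicate 2 at 5.95 and the other 5 arrays between 5.27 and 5.51. Cdk2, the kinase partner of cyclin E, had -0.18 ± 0.17 (SE), and -0.34 with an unadjusted p under 0.05 without wild-type replicate 1, which read 7.56.

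Behind the fork, UHRF1 brings the maintenance DNA methyltransferase to newly copied DNA and CHAF1B is a subunit of the chromatin assembly factor that places histones there. Uhrf1 had -0.033 ± 0.13 (SE) and Chaf1b -0.19 ± 0.16 (SE). The groups overlapped for both.

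Set against the promoter letters, the ranges of the differences overlapped. The 9 measured genes with E2F-like letters had differences from -0.26, at Rfc3, to 0.18, at Mcm7, with a median of -0.058. The 20 measured genes with a listed promoter and none of these letters ran from -0.34 to 0.50, with a median of 0.011, and held all 3 genes with an unadjusted p under 0.05. At that threshold in limma 4.74% of all genes were higher and 5.51% lower. Whether the calls go with the letters was not tested. A match is a description of letters and not a measured binding site.

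Arrays of one group did not stand at one level. Taken as each array's median deviation from the gene's mean over all arrays, the 34 genes stood at -0.082, 0.022 and 0.041 in wild-type replicates 1, 2 and 3 and at 0.029, -0.018 and -0.024 in the knockout arrays. Wild-type replicate 1 was thus the lowest array, below both other wild-type arrays and all knockout arrays. It was the lowest of the 6 for 12 of the 34 genes, or 35.3%, beside 21.8% of all genes. The same array was the lowest for 29 of 62 other replication genes, or 46.8%. Without it, 0 of the 34 genes were on the higher side at an unadjusted p under 0.05 and 2, Cdk2 and Gins1, were on the lower side. Of all 22180 genes, 873 were higher and 1203 lower in that fit. Leaving out replicate 2 of either group gave 1 higher, Rrm2, and 1 lower, Tk1. Over all genes the counts were 1086 and 1208 without wild-type replicate 2 and 836 and 949 without knockout replicate 2. Without wild-type replicate 3 the calls were those of all 6 arrays, Rrm2 and Dut higher and Tk1 lower. That fit had 1245 higher and 1468 lower over all genes. Leaving out knockout replicate 1 gave 0 in either direction, beside 779 higher and 851 lower of all genes. Leaving out knockout replicate 3 gave 0 higher and 2 lower, Rfc3 and Tk1, beside 846 and 893 of all genes.

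**Figure D4:**
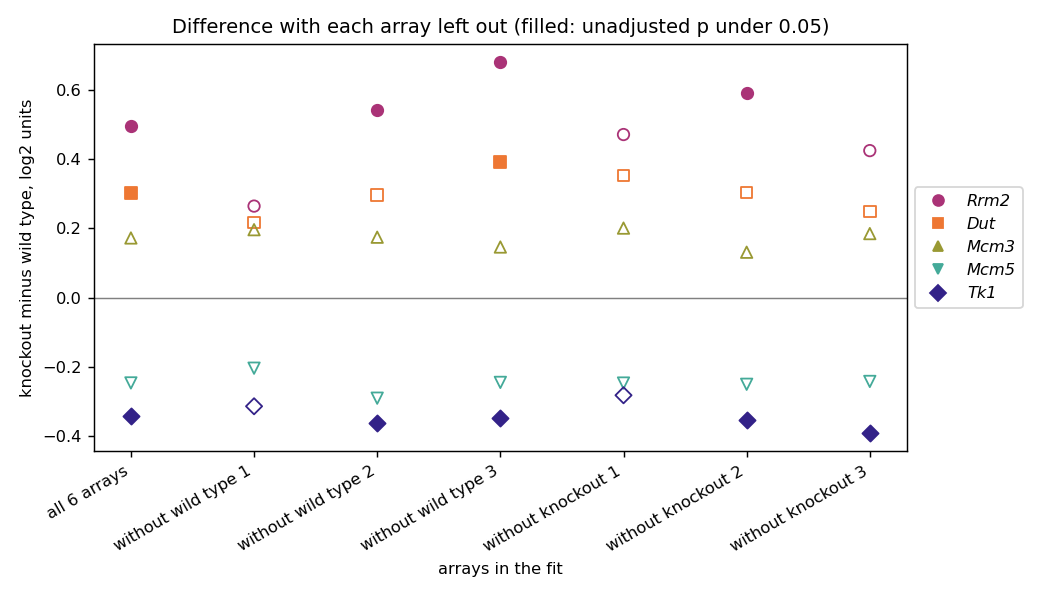
The y axis gives the knockout minus wild type difference in log2 units with all 6 arrays and with each array left out in turn (x axis), for the 5 genes that had an unadjusted p under 0.05 or whose groups did not overlap; filled symbols mark an unadjusted p under 0.05 in limma. The signs hold throughout, while Rrm2 ranges from 0.26 without wild-type replicate 1 to 0.68 without wild-type replicate 3.

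A further 64 genes of the same pathway were listed by role. Of the 62 that were measured, 37 had a positive and 25 a negative difference, with a median of 0.043, which was -0.018 without wild-type replicate 1 and 0.12 when wild-type replicate 3 was left out. None passed the adjusted threshold, and at an unadjusted p under 0.05 in limma 2 were higher, beside 4.74% of all genes, 2 were lower, beside 5.51%, and 58 were neither. These counts were no higher than the shares over all genes, and the 4 genes are given as values. E2f5, a factor of the repressive E2F group, read 5.01, 4.59 and 5.53 in the wild-type arrays and 5.91, 5.93 and 5.56 in the knockout arrays. Its groups were separated by a margin that rested on wild-type replicate 3 and knockout replicate 3. The difference was 0.76 ± 0.24 (SE, adjusted p = 0.364 in limma), and it ranged from 0.53 to 1.0 with 1 array left out, with an unadjusted p under 0.05 in all 16 settings.

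Ccna2, the cyclin A2 gene of S and G2 phase, had 0.40 ± 0.14 (SE). It read 8.05, 8.30 and 8.54 in the wild-type and 8.63, 8.69 and 8.78 in the knockout arrays, again with wild-type replicate 1 the lowest, and without that array it had 0.28. Its unadjusted p was under 0.05 in 14 of 16 settings. Gins4, a subunit of the same GINS complex as Gins1 and Gins2, had -0.39 ± 0.15 (SE). It read 7.79, 8.20 and 8.0 in the wild-type and 7.48, 7.68 and 7.68 in the knockout arrays, without overlap, and its unadjusted p was under 0.05 in 13 of 16 settings and 3 of 6 fits with 1 array left out. Rbl1, which encodes the E2F-binding pocket protein p107, had -0.37 ± 0.15 (SE), with wild-type arrays at 7.29, 7.22 and 6.99 and knockout arrays at 6.84, 6.67 and 6.88. The unadjusted p of Rbl1 was under 0.05 in 11 of 16 settings and 2 of 6 fits with 1 array left out. None of these 4 had a further probe set. Dck, the deoxycytidine kinase of the salvage pathway to which Tk1 belongs, had 0.39 ± 0.19 (SE) with overlapping groups, opposite in sign to Tk1. The count of the 62 genes moved with single arrays: without wild-type replicate 1 there were 3 higher and 3 lower, without wild-type replicate 2 there were 5 and 0, without wild-type replicate 3 there were 5 and 1, without knockout replicate 1 there were 3 and 0, without knockout replicate 2 there were 3 and 1, and without knockout replicate 3 there were 1 and 2. Over all 22180 genes the counts in these fits ran from 779 to 1245 higher and from 851 to 1468 lower.

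Genes of mitosis, which rise after S phase, were set beside these as a second readout of cycling cells. Of 19 measured, 13 had a positive and 6 a negative difference, with a median of 0.057, and 0 passed an unadjusted p of 0.05. Mki67, the gene of the proliferation antigen Ki-67, had -0.029 ± 0.12 (SE), Cdk1, the mitotic kinase, 0.093 ± 0.11 (SE), and Top2a, the topoisomerase that untangles copied chromosomes, 0.11 ± 0.10 (SE). The groups did not overlap for 3 of the 19: Top2a and Kif11, a spindle motor gene at 0.18, were higher in every knockout array, beside 7.75% of all genes, and Foxm1, a transcription factor gene of the G2 and M programme at -0.17, was lower, beside 8.37%. The array means over all 19 lay between 7.54 and 7.66 in the wild-type and between 7.61 and 7.68 in the knockout arrays.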

How the data were processed

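LSK cells were measured on 6 Affymetrix arrays. The authors deposited log2 probe set values made with Affymetrix Expression Console, per the submitters' processing notes; the sources used here do not give background correction, summary, normalization or version. Array medians over 41345 probe sets lay between 4.05 and 4.10, so values were used without further scaling. Such scaling hides a shift in a cell's total RNA, and dim probe sets compress differences. Of the probe sets, 23521 had 1 symbol in the platform annotation and 1814 had several, which were left out. All 34 measured members matched a RefSeq gene of GRCm38.p6 by Entrez number.

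Knockout and wild type were compared with limma 3.58.1 in R 4.3.3 (lmFit, eBayes with intensity trend, genotype only, two-sided) over 22180 genes. The p-values were adjusted by Benjamini-Hochberg. The fit was tested on simulated data, where the added changes were larger than any difference among the members. That test therefore does not show how well differences of the size seen here are found. The number of arrays limits precision, and p-values measure the spread between these arrays. Array values were printed for genes with an unadjusted p under 0.05, non-overlapping groups, a difference of at least 0.4, or the highest or lowest signal of the list, and named further pathway genes had an unadjusted p under 0.05; Orc1, Gins1, Rfc3, Ccne1, Cdk2, Dck, Mki67, Cdk1, Top2a, Kif11, Foxm1, Kit, Cd34, Meis1, Flt3, Mmp8 and Ctsg were given values after they were seen. Members and lists were chosen with earlier results of these data known. Alternatives were array weights, no trend, robust eBayes, cyclic loess, median centring, quantile normalization, dropping genes whose signal was under the 40th percentile, averaging a gene's probe sets, replicate number as a block, an adjusted p under 0.1, and each array left out. Counts of 16 settings are the reported fit and these 15 other fits.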

Additional observations from a re-analysis of the deposited data

How the results depend on the processing

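No member passed the adjusted threshold under any alternative run, an adjusted p under 0.1 included. The member median moved by less than the replicate spread of 0.051 in every alternative. With 1 array left out it ranged from -0.052 to 0.031. This covers the member median alone and not its distance from the median over all genes, which moved too. With quantile normalization the member median was -0.041 beside 0.026 over all genes. With cyclic loess it was -0.048 beside 0.0089, and as reported -0.014 beside 5.92e-05. The count of members on the higher side at an unadjusted p under 0.05, 2 as reported, was 1 without the intensity trend, with array weights, with quantile normalization, with median centring and with cyclic loess, and 0 when probe sets of one gene were averaged. Over all 22180 genes the count on the higher side ran from 953 to 1190 in these fits. With 1 array left out the member count on the higher side ranged from 0 to 2, that on the lower side from 0 to 2, and the counts of other replication genes from 1 to 5 higher and from 0 to 3 lower. Over all genes these fits gave 779 to 1245 higher and 851 to 1468 lower. With the replicate number as a block, 1 member was higher and 0 lower, and 1 other replication gene was lower. That fit had 938 higher and 1181 lower over all genes. Deviations from the group mean correlated at 0.020, -0.031 and -0.088 between same-numbered wild-type and knockout arrays. Differently numbered arrays gave -0.074 to 0.107. Deviations from a mean of 3 arrays depend on each other, so these values do not settle whether the replicate numbers pair the arrays. The sign of the difference was kept in all 15 alternatives for 17 of the 34 members and turned in at least 1 for the other 17, with 1 array left out for 13 of them and in another alternative for 8. Of these, Pcna reversed to -0.030 with quantile normalization and -0.026 with cyclic loess, and E2f2 to 0.025 with array weights; with 1 array left out E2f2 ranged from -0.21 to 0.15 and was 0.096 without wild-type replicate 1. The cause of these shifts was not tested. Dim probe sets limit what can be seen. E2f2 had the lowest mean signal of the 34 members, 4.73, beside a median signal of 4.42 over all genes.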

Other observations

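Probe sets shared with another gene were left out of the comparison and are given here as values. The probe set of Rfc4, a clamp loader subunit, is shared with the translation factor gene Eif4a2; it read 6.35, 6.93 and 6.58 in the wild-type arrays and 6.48, 6.56 and 6.75 in the knockout arrays, so the groups overlapped. A probe set shared by Tyms and its pseudogene had a difference of -0.39, with wild-type replicate 1 at 5.18 and the other arrays between 3.62 and 4.04. Mcm7 hosts microRNA genes in its introns, and 2 probe sets are shared with them, at Mir25 and Mir93. They had -0.30 with overlapping groups and -0.46 with every knockout array lower, where Mcm7's own probe set had 0.18. Groups were apart on the lower side for 8.37% of all genes. The Mir93 probe set was dim, at 2.57 to 3.44, beside a median signal of 4.42 over all genes. Further probe sets of Fen1 and Pole, dimmer than those used, had -0.40 and -0.14 where the used ones had 0.11 and 0.10.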
